A study of Mus musculus with 3 samples.

Results

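Cells that carry RNA of the human EGFR transgene were examined on both sides of a CD45 sort of mouse glioblastoma. A cell barcode entered with at least 2 human EGFR UMIs (hsEGFR, unique molecular identifiers, each standing for 1 captured mRNA molecule), fewer than 30 UMIs of the neutrophil genes S100a8 and S100a9 together, at least 500 UMIs, at least 500 genes and at most 20% mitochondrial UMIs. In the medium and large tumor samples 1376 of the 20811 deposited barcodes met this rule, and 17894 barcodes of the series passed the limits on UMIs, genes and mitochondrial RNA. They are called human EGFR barcodes here: 140 came from the CD45+ and 304 from the CD45- sort of the medium tumor sample, and 54 from the CD45+ and 878 from the CD45- sort of the large tumor sample. The barcodes were selected on hsEGFR, S100a8, S100a9, depth and mitochondrial share, and these are described without a test.

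The mice carried a conditional wild-type human EGFR transgene, were constitutively Cdkn2a-/-, had a Lox-STOP-Lox luciferase reporter, and were of mixed background. Adult animals of both sexes were used. All groups share these alleles. Tumors were started by injecting lentivirus that encodes Cre recombinase (iCre), with or without the human EGFR ligand TGFA, into the striatum, so which cells recombined was set by the injection rather than by a cell-type promoter. Viable CD45+ and CD45- cells were sorted from dissociated brain without cerebellum, and both sorts were run on the inDrop droplet platform. The labels used here give the run, index, sort and stage of each library, and not the animal. The medium and the large stage were each taken as 1 tumor sample, with both sorts from the same tumor. The stages therefore cannot be told apart from the animals. The 4 libraries of each stage and sort, spread over 3 sequencing runs, were taken as technical repeats.

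CD45, encoded by Ptprc, is a phosphatase on the surface of leukocytes, which in a brain tumor are mainly resident microglia and infiltrating macrophages, with smaller numbers of T and B cells. Gliomas driven by EGFR hold cells that resemble oligodendrocyte progenitors, marked by Pdgfra, Olig1 and Olig2, beside cells in a more mesenchymal state, marked by Lgals1, Vim and Cd44. Neither state is known to express Ptprc. A tumor cell barcode in a CD45+ library can be, among other possibilities, a tumor cell that passed the gate, a droplet with both kinds of cell, or a leukocyte with tumor RNA. Counts alone cannot tell these apart.

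The human EGFR barcodes of the CD45+ sort were shallower than those of the CD45- sort. The median was 3060 UMIs in the medium and 3809 UMIs in the large CD45+ sort, against 6646.5 UMIs in the medium and 6158 UMIs in the large CD45- sort. Their summed UMIs were 508083 and 238520 in the medium and large CD45+ sort and 2209109 and 6301231 in the CD45- sort. Raw UMIs of a gene are therefore not on the same scale in the groups. Some barcodes recurred between libraries of the same tumor and sort: the 140 medium CD45+ barcodes had 104 distinct sequences, the 304 medium CD45- barcodes 296 and the 878 large CD45- barcodes 713, whereas the 54 large CD45+ barcodes were all distinct. No human EGFR barcode of the CD45+ sort shared its sequence with one of the CD45- sort of the same tumor. Results are therefore also given with barcodes of the same tumor, sort and sequence merged.

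Human EGFR RNA was rare but present in the CD45+ sort. At least 2 hsEGFR UMIs were found in 144 of 3988 medium CD45+ barcodes (3.61%, 95% exact Clopper-Pearson interval 3.05 to 4.24%) and in 54 of 2120 large CD45+ barcodes (2.55%, 1.92 to 3.31%). In the CD45- sort the shares were 18.8% (304 of 1617, 16.9 to 20.8%) for the medium and 38.2% (878 of 2299, 36.2 to 40.2%) for the large tumor sample. These intervals cover counting error only. After merging barcodes the medium CD45+ share was 3.03%. The limit on S100a8 and S100a9 removed 4 of the medium CD45+ barcodes, and none elsewhere. Within the runs the share lay between 3.22 and 4.66% in the medium and between 2.05 and 8.33% in the large CD45+ sort, where run 1 held 108 barcodes in all.

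The same share is given for CD45+ barcodes with at least 3 UMIs of the genes of 1 leukocyte type. Among medium T cell barcodes 0 of 406 had 2 or more hsEGFR UMIs, which allows a share of up to 0.739% by a floor of 3 counts (exact upper limit 0.904%), and 1 had a single UMI. In the large tumor 0 of 118 T cell barcodes reached 2 UMIs, which allows up to 2.54% by that floor (exact upper limit 3.08%). The 2.55% of the whole gate lies just above that floor and within the exact limit. Of B cell barcodes 5 of 631 medium (0.792%, 0.258 to 1.84%) and 1 of 159 large (0.629%, 0.0159 to 3.45%) reached 2 UMIs. Of microglia-marked barcodes 16 of 2707 medium (0.591%, 0.338 to 0.958%) and 16 of 1843 large (0.868%, 0.497 to 1.41%) did. Of barcodes with MHC class II RNA 82 of 3017 medium (2.72%, 2.17 to 3.36%) and 9 of 906 large (0.993%, 0.455 to 1.88%) did. The microglia and MHC class II marks also take up barcodes with tumor RNA, since in the CD45- sort 56 of 105 large microglia-marked (53.3%) and 118 of 239 medium MHC class II barcodes (49.4%) had 2 or more hsEGFR UMIs. In the CD45+ sort median depth was between 1963 and 2715 UMIs in these groups and 1989.5 and 2115 UMIs in all medium and large CD45+ barcodes.

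Levels of hsEGFR in the human EGFR barcodes spanned a wide range in both sorts. The median was 7 UMIs (range 2 to 207) for medium and 6 UMIs (2 to 29) for large CD45+ barcodes, and 9 UMIs (2 to 421) for medium and 11 UMIs (2 to 107) for large CD45- barcodes. Per 10000 UMIs the summed level was 48.7 in the medium CD45+ sort against 21.1 in the medium CD45- sort, and 18.8 against 20.7 in the large tumor sample. The medium CD45+ sum was carried by few barcodes, since 10 of 140 held 43.9% of its hsEGFR UMIs, and its median per barcode was 23.3 per 10000 UMIs against 15.4 in the CD45- sort. Just inside the limit, 25 CD45+ barcodes had exactly 2 hsEGFR UMIs, of which 12 were dominated by glial RNA as defined below, and just outside it 40 had 1, of which 18 were. At the limit on neutrophil RNA, the nearest barcode inside held 10 and the nearest outside 64 UMIs of S100a8 and S100a9.

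The iCre transcript, which the lentivirus delivers, was seen in a part of the human EGFR barcodes of each sort. An iCre UMI was present in 68 of 140 medium (48.6%, 40.0 to 57.2%) and 22 of 54 large (40.7%, 27.6 to 55.0%) human EGFR barcodes of the CD45+ sort. The shares were 62.8% (57.1 to 68.3%) for medium and 61.0% (57.7 to 64.3%) for large CD45- barcodes. Among CD45+ barcodes with 0 hsEGFR UMIs it was present in 56 of 3533 (1.59%) in the medium and 5 of 2031 (0.246%) in the large tumor sample, at median depths of 1935 and 2086 UMIs. Here and below, barcodes with 0 hsEGFR UMIs met the same limits on S100a8 and S100a9, UMIs, genes and mitochondrial RNA. Those richer in these neutrophil genes were left out. Thinned to 1000 UMIs, the medium shares were 18.7% (12.6 to 26.2%) in the CD45+ and 18.3% (14.1 to 23.2%) in the CD45- sort, and the large shares were 3.77% (0.460 to 12.98%) and 17.4% (14.9 to 20.1%). Thinning left out 1 barcode in each CD45+ group, 4 in the medium and 9 in the large CD45- group. It was a single random draw, and the large CD45+ share rests on 2 of 53 barcodes. As a level, iCre was at 244 UMIs per 1000000 summed UMIs (CPM) in the medium CD45+ sort and 235 CPM in the medium CD45- sort, and at 151 and 207 CPM in the large. The fitted log2 fold change of the CD45+ over the CD45- sort was -0.25 (SE 0.26, adjusted p = 0.895, edgeR quasi-likelihood test). Merging barcodes gave an iCre share of 63.5% in the medium and 40.7% in the large CD45+ sort, against 64.0% and 69.1% in the CD45- sort.

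TGFA and Cdkn2a gave little signal. Human TGFA RNA was seen as 0 UMIs in the CD45+ sort, 1 in the medium and 2 in the large CD45- sort. Cdkn2a was at 0 and 1 UMIs in the medium and large human EGFR barcodes of the CD45+ sort and at 1 and 10 UMIs in those of the CD45- sort. As levels these were 0 and 4.19 CPM against 0.453 and 1.59 CPM.

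Most human EGFR barcodes of the CD45+ sort held glial RNA and little leukocyte RNA. Each barcode was placed by the share of leukocyte UMIs (lists of pan-leukocyte, microglia, macrophage and C1q and myeloid receptor genes) among its leukocyte and glial UMIs (24 genes such as Pdgfra, Sox10, Fabp7 and Gpm6b). A share of at most 20% was called glial-dominated, at least 80% leukocyte-dominated and the range between both, and barcodes with under 5 such UMIs were left undetermined. These are ranges of a score and not cell types. In the medium CD45+ sort 119 of 140 barcodes were glial-dominated (85.0%, 78.0 to 90.5%), 17 held both (12.1%, 7.24 to 18.7%), 2 were leukocyte-dominated and 2 undetermined. In the large CD45+ sort 35 of 54 were glial-dominated (64.8%, 50.6 to 77.3%), 9 held both (16.7%, 7.92 to 29.3%), 8 were leukocyte-dominated (14.8%, 6.62 to 27.1%) and 2 undetermined.

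In the CD45- sort 302 of 304 medium (99.3%) and 867 of 878 large (98.7%) barcodes were glial-dominated. No medium CD45- barcode held both or was leukocyte-dominated, which allows a share of up to 0.987% by a floor of 3 counts (exact upper limit 1.21%), and 7 and 1 large CD45- barcodes did. Since the CD45- barcodes were deeper, the ranges were also set after thinning each barcode to 1000 UMIs. Thinned, the glial-dominated share was 79.1% (71.4 to 85.6%) in the CD45+ and 89.7% (85.7 to 92.9%) in the CD45- sort of the medium, and 62.3% (47.9 to 75.2%) and 88.3% (85.9 to 90.3%) in the large tumor sample, with 9, 31, 4 and 93 barcodes undetermined. The share that held both or was leukocyte-dominated was 14.4% (9.02 to 21.3%) for medium and 30.2% (18.3 to 44.3%) for large CD45+ barcodes, against 0 of 300, which allows up to 1.00% by that floor (exact upper limit 1.22%), and 1.04% (0.475 to 1.96%). Barcodes of 1 tumor sample are not replicates, so these intervals do not cover the spread between animals. The glial-dominated share was between 84.2 and 86.7% in the runs of the medium and between 57.7 and 77.8% in those of the large CD45+ sort, and between 98.3 and 100% in every run of the CD45- sort. Merging barcodes gave 87.5% for the medium and 64.8% for the large CD45+ sort. Near the limits lay 7 CD45+ barcodes with 15 to 25% and 6 with 75 to 85% leukocyte UMIs, the latter beside 2 medium and 8 large barcodes called leukocyte-dominated. Limits of 10 and 90% gave a medium CD45+ glial-dominated share of 76.4%.

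**Figure D1:**
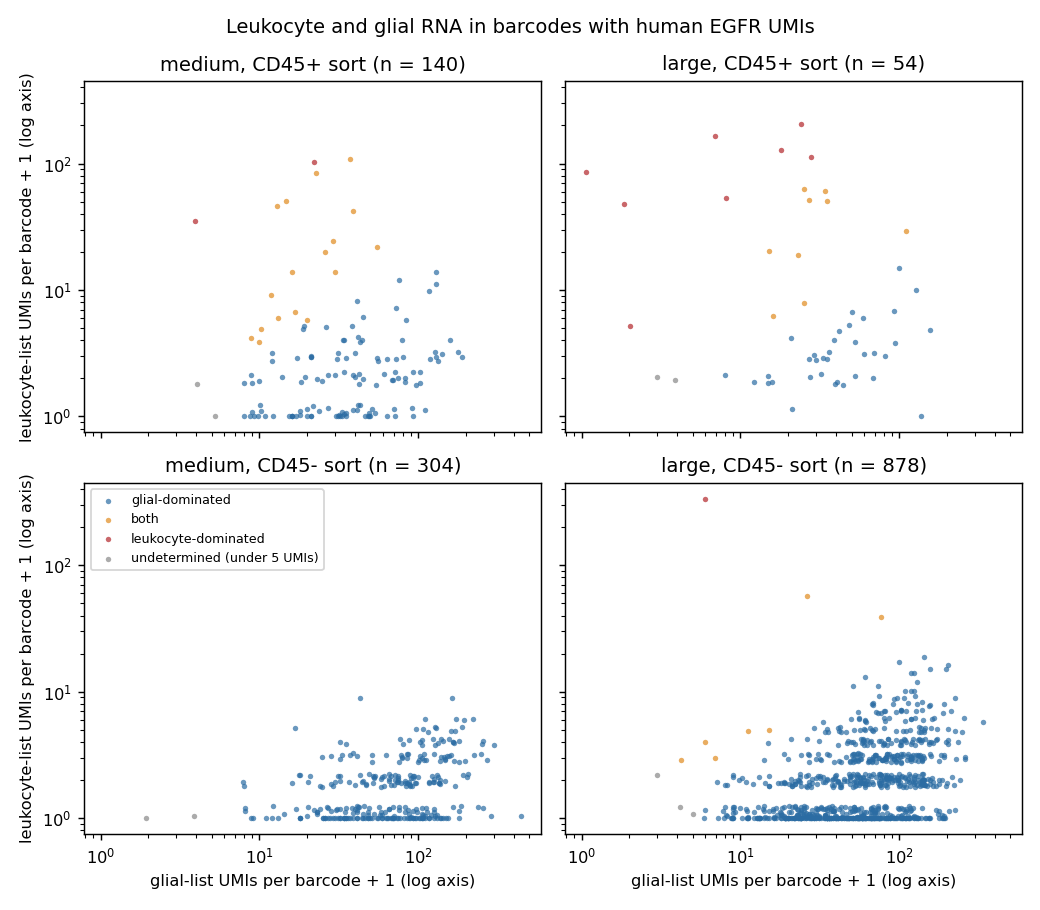
Glial-list UMIs (horizontal, plus 1, log axis) and leukocyte-list UMIs (vertical, plus 1, log axis) of each human EGFR barcode, 1 point per barcode with a small random offset, in the medium and large tumor samples and both sorts. Blue points are glial-dominated (119, 35, 302 and 867 barcodes), orange hold both and red are leukocyte-dominated, and in the medium and large CD45+ panels the highest orange points are at 107 and 62 and the highest red points at 102 and 204 leukocyte UMIs.

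**Figure D2:**
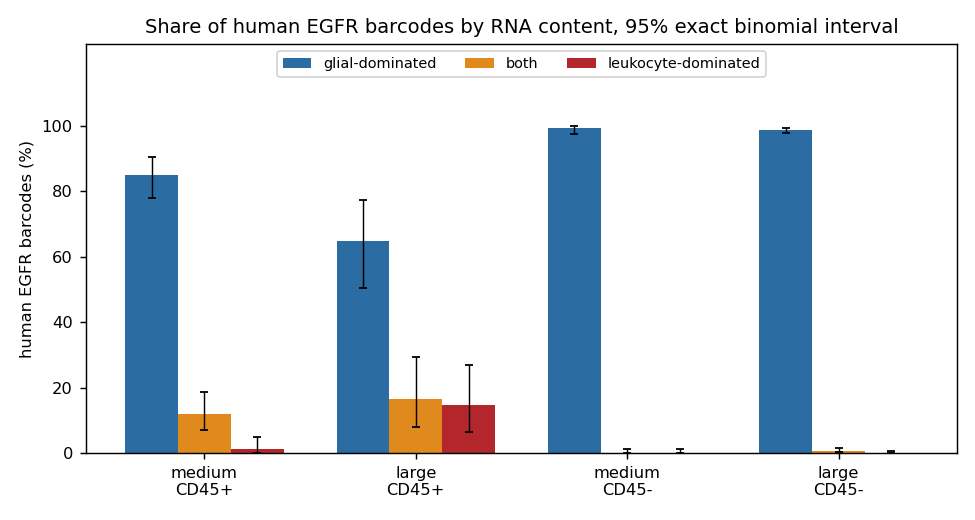
Share of human EGFR barcodes (%) in the glial-dominated, both and leukocyte-dominated ranges for each tumor sample and sort, with 95% exact binomial intervals as error bars. The glial-dominated bars stand at 85.0 and 64.8% in the CD45+ sort and at 99.3 and 98.7% in the CD45- sort.

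The leukocyte RNA was concentrated in the few barcodes outside the glial-dominated range. In the medium CD45+ sort the 19 barcodes that held both or were leukocyte-dominated carried 584 leukocyte UMIs, 76.7% of those in all 140, and in the large CD45+ sort 17 such barcodes carried 1095 UMIs, 91.9% of the total. These shares follow in part from how the ranges are defined. Their leukocyte level was 94.2 and 148 per 10000 UMIs, which is 29.4 and 38.5% of the level in CD45+ barcodes with 0 hsEGFR UMIs of the same tumor. The glial-dominated CD45+ barcodes held 3.97 and 5.85 leukocyte UMIs per 10000, or 1.24 and 1.52% of that level. The glial-dominated CD45- barcodes held 1.33 and 1.95 per 10000.

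Barcodes outside the glial-dominated range were shallower than the glial-dominated ones in the medium and slightly deeper in the large CD45+ sort. Their median was 2485 UMIs in the medium and 4101 UMIs in the large CD45+ sort, against 3127 and 3894 UMIs in the glial-dominated ones. Scrublet, a doublet caller that was run on each library of at least 100 barcodes, called 1 of these 19 medium barcodes and 0 of the 16 large ones it scored, and 0 of 119 and 28 scored glial-dominated CD45+ barcodes. It called 0.635% of the barcodes tested in the series, far under the expected rate of 6% with which it was run. iCre was seen in 8 of the 19 and 4 of the 17 barcodes. Their glial RNA stood at 61.5 and 52.0 per 10000 UMIs, against 130 and 110 in the glial-dominated barcodes of the same sort and 2.09 and 2.56 in CD45+ barcodes with 0 hsEGFR UMIs.

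Across genes, the human EGFR barcodes of the CD45+ sort were compared with those of the CD45- sort. Counts were summed per tumor sample and sort, and edgeR was fitted with the tumor sample as a block on 12356 genes. At an adjusted p of 0.05 or less 87 genes were higher in the CD45+ sort (0.704% of those tested) and 42 lower (0.34%). The fit has 1 residual degree of freedom, so p-values lean on the dispersion shared across genes. All 87 higher genes stood at a higher CPM in CD45+ barcodes with 0 hsEGFR UMIs than in human EGFR barcodes of the CD45- sort, as did 24.2% of all tested genes, and none of the 42 lower genes did. The CD45- sums of this description are those that made the calls. Of the 87 higher genes 24 were in a list of leukocyte genes, as were 0 of the 42 lower genes and 40 of the 12356 tested. These counts also take in the MHC class II, dendritic cell, B cell and neutrophil lists, beside the leukocyte lists that set the ranges. Without the tumor block edgeR called 16 genes higher and 0 lower, against 244 and 542 at an unadjusted p under 0.05, and C1qa, C1qb, C1qc and Fcer1g were among those lost. Without the medium CD45- library C 52 genes were higher.

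Ptprc itself was seen in few of the barcodes. It had 8 UMIs in 7 of the 140 medium and 7 UMIs in 4 of the 54 large human EGFR barcodes of the CD45+ sort, and 6 UMIs in 6 of 304 and 8 UMIs in 8 of 878 of the CD45- sort. Its log2 fold change was 3.44 (SE 0.79, adjusted p = 0.0746). In CD45+ barcodes with 0 hsEGFR UMIs it was seen in 22.4% of the medium and 26.6% of the large, at lower median depth. Ptprc RNA was therefore less frequent in the human EGFR barcodes than in barcodes of the same gate with 0 hsEGFR UMIs, while the depth was higher.

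Pan-leukocyte and myeloid receptor genes rose together. Of 10 pan-leukocyte genes 8 rose and 2 did not pass, with a median log2 fold change of 4.99 against -0.14 over all genes tested. Laptm5, a lysosomal membrane protein of blood cells, was at 90.5 and 302 CPM in medium and large CD45+ barcodes and at 0.453 and 5.24 CPM in the CD45- sort (log2 fold change 5.97, SE 0.44, adjusted p = 1.24e-05). Tyrobp, a signalling adaptor of myeloid and natural killer cells, was at 74.8 and 164 CPM against 0.905 and 1.90 CPM (log2 fold change 6.24, SE 0.49). Fcer1g, the common gamma chain of Fc receptors, had 18 and 34 UMIs in the CD45+ sort and 0 and 7 UMIs in the CD45- sort.

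The 8 genes of the C1q and myeloid receptor list all rose, with a median log2 fold change of 5.89. C1qa (chromosome 4, 136895917 to 136898803, GRCm38), which encodes a chain of the complement component C1q, was at 132 and 675 CPM in medium and large CD45+ barcodes and at 0.905 and 6.98 CPM in the CD45- sort (log2 fold change 6.54, SE 0.35, adjusted p = 1.66e-06). C1qb and C1qc, the other C1q chains, had log2 fold changes of 6.70 (SE 0.42) and 6.53 (SE 0.41). Csf1r, the receptor that microglia and macrophages need for survival, rose less, from 18.1 and 31.1 CPM to 128 and 419 CPM. In both tumor samples both CD45+ sums lay above both CD45- sums for these genes. C1qa UMIs were found in 13 of 140 medium and 19 of 54 large CD45+ barcodes, and 60 of the 67 medium and 157 of the 161 large UMIs were in barcodes outside the glial-dominated range. C1qa is in a list that sets this range, so that concentration follows in part from the definition.

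Microglial genes were among those that rose. Of 9 tested genes of the microglia list 6 rose and 3 did not pass. Cx3cr1, the fractalkine receptor, was at 118 and 415 CPM in the CD45+ and at 4.07 and 9.20 CPM in the CD45- sort (log2 fold change 5.17, SE 0.35, adjusted p = 5.57e-06). P2ry12, a purine receptor of resting microglia, was at 70.9 and 101 CPM against 5.43 and 37.3 CPM and did not pass (log2 fold change 2.28, SE 0.51, adjusted p = 0.0633). Of the macrophage and monocyte list 3 of 10 genes had enough counts, and Lyz2 rose (log2 fold change 6.99, SE 0.54). Its neighbour and near-identical copy Lyz1 gave 6.59 (SE 0.68), and reads may have been split between them.

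The secreted products of activated myeloid cells were also among the largest rises. Ccl4, a chemokine that attracts monocytes and T cells, had 106 and 99 UMIs in the medium and large CD45+ sort and 0 and 7 UMIs in the CD45- sort (log2 fold change 8.64, SE 0.47, adjusted p = 1.66e-06). Its UMIs came from 12 of 140 and 11 of 54 barcodes. Il1b, the inflammatory cytokine interleukin 1 beta, had 79 and 56 UMIs in the CD45+ sort and 1 and 11 in the CD45- sort (log2 fold change 7.17, SE 0.45). Ly86, a partner of a Toll-like receptor homologue, had 53 and 57 UMIs against 2 and 8. Ctss, the lysosomal protease cathepsin S, was 1 of 3 genes of 10 tested in the lysosome and phagocytosis list that rose (log2 fold change 6.21, SE 0.41), with Ctsd and Cd68, and all 11 genes of that list stood higher in CD45+ barcodes with 0 hsEGFR UMIs than in human EGFR barcodes of the CD45- sort.

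T cell RNA was sparse, and most antibody UMIs came from few barcodes. Of the T cell, natural killer cell and erythroid lists no gene had enough counts to be tested, and the human EGFR barcodes of the CD45+ sort held 8 and 1 UMIs of the 10 T cell genes in the medium and large tumor sample. Jchain, the joining chain of secreted antibodies and a plasma cell gene, had the largest log2 fold change (11.29, SE 0.72, adjusted p = 7.12e-06), with 260 and 2 UMIs against 0 and 0 in the CD45- sort, at least 995-fold higher by a floor of 3 counts over the group. Of its 260 medium UMIs 190 and 64 were in 2 barcodes. The same sort held 1364 UMIs of Igkc, with 879 and 455 UMIs in its 2 highest barcodes. This antibody light chain is in the B cell list and was singled out after its values were seen. At least 1 Igkc UMI was found in 28 of 140 medium CD45+ barcodes (95% interval 13.7 to 27.6%), in 18.8% of medium CD45+ barcodes with 0 hsEGFR UMIs and in 2 of 304 human EGFR barcodes of the medium CD45- sort. The B cell list as a whole had 1391 UMIs in 39 of the 140 barcodes, and 1364 of these were the Igkc UMIs. Its level was 27.4 per 10000 UMIs against 163 in CD45+ barcodes with 0 hsEGFR UMIs. The Jchain call was lost with DESeq2 (adjusted p = 1.00) and without the tumor block (adjusted p = 0.877).

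MHC class II genes did not pass the test in the fit although their levels were higher in the CD45+ sort. The list was at 31.9 and 6.46 per 10000 UMIs in the medium and large CD45+ sort and at 8.06 and 0.189 in the CD45- sort. Cd74, the invariant chain of MHC class II, was at 907 and 214 CPM against 102 and 0.635 CPM (log2 fold change 4.52, SE 1.87, adjusted p = 0.817). The fold between the sorts differed widely between the tumor samples. Of 7 genes 6 were tested and 0 passed by edgeR.

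**Figure D3:**
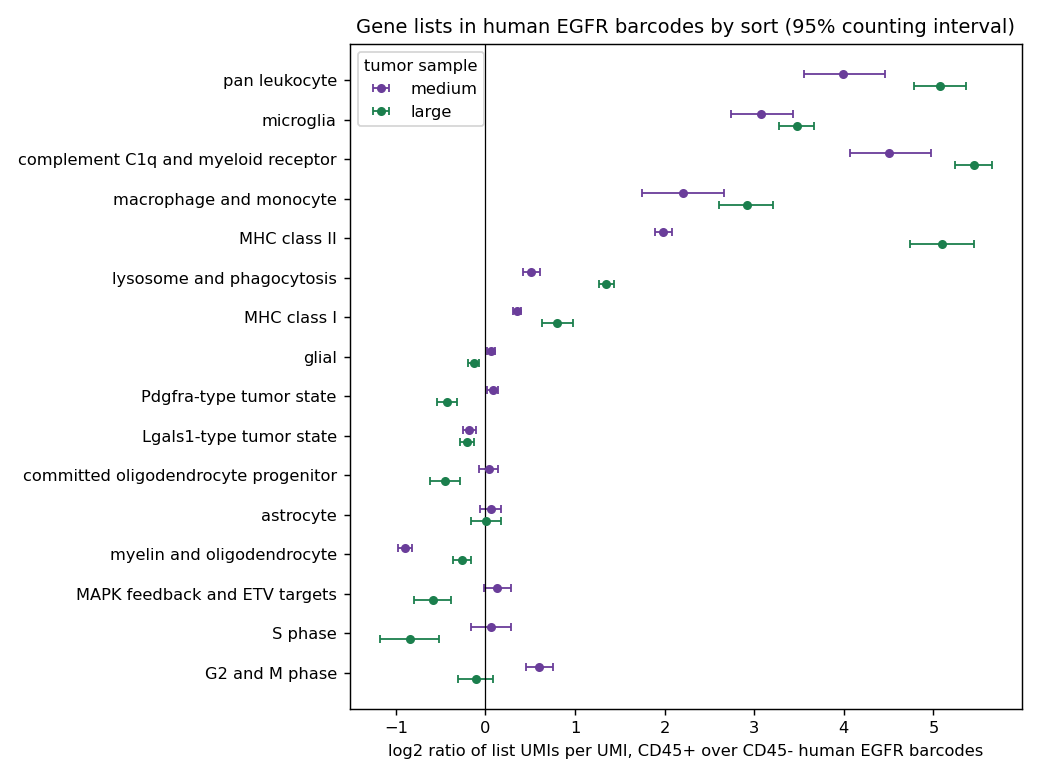
Log2 ratio of the list UMIs per UMI in CD45+ over CD45- human EGFR barcodes (horizontal) for 16 gene lists (vertical), with the medium tumor sample in purple, the large in green and bars for the 95% interval of counting error, which does not cover the spread between animals. The pan-leukocyte, microglia, macrophage and C1q lists lie between 2.21 and 5.45, while the glial list lies at 0.062 and -0.13.

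The genes of the glial list differed little between the sorts. The list is not specific to human EGFR barcodes. In CD45- barcodes with 0 hsEGFR UMIs it stood at 70.1 (medium) and 65.9 (large) per 10000 UMIs. In the CD45- human EGFR barcodes it stood at 115.7 and 99.2. The list alone therefore does not show that a glial-dominated barcode is a tumor cell. Of 24 glial genes 0 passed in either direction by edgeR, with a median log2 fold change of -0.22 against -0.14 over all genes. One of them, Sox2, reached an unadjusted p under 0.05 (log2 fold change -0.68, SE 0.28, unadjusted p = 0.0296, adjusted p = 0.548, edgeR). Sox10, a transcription factor of the oligodendrocyte lineage, was at 842 and 859 CPM in medium and large CD45+ barcodes and at 903 and 926 CPM in the CD45- sort (log2 fold change -0.19, SE 0.17). Fabp7, a fatty acid binding protein of glial progenitors, was at 1451 and 1576 CPM against 1605 and 1076 CPM. Gpm6b, a membrane glycoprotein of glia, was at 1923 and 2432 CPM against 1829 and 1845 CPM. A change that misses the threshold does not show that the levels were equal.

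RNA of both tumor state lists was found in the human EGFR barcodes of the CD45+ sort. Of the 12 genes of the Pdgfra-type state, 0 passed by edgeR (median log2 fold change -0.22). Pdgfra, the growth factor receptor of oligodendrocyte progenitors, was at 630 and 411 CPM in medium and large CD45+ barcodes and at 588 and 426 CPM in the CD45- sort (log2 fold change -0.05, SE 0.20, adjusted p = 0.973). Olig1 was at 1075 and 340 CPM against 961 and 659 CPM, and Olig2 at 441 and 126 CPM against 383 and 260 CPM. These 3 genes were higher in the CD45+ sort of the medium and lower in that of the large tumor sample. In glial-dominated barcodes alone Pdgfra was higher in the CD45+ sort of both, at 668 and 560 CPM against 590 and 428 CPM. Pdgfra is 1 of the 24 glial genes that set this range. The range kept 119 of 140 and 35 of 54 CD45+ barcodes, but 302 of 304 and 867 of 878 CD45- barcodes. This difference therefore follows in part from the choice of barcodes. As a list, the Pdgfra-type genes were at 56.1 per 10000 UMIs in the CD45+ and 53.1 in the CD45- sort of the medium tumor sample, and at 29.8 and 40.0 in the large.

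Of the 15 genes of the Lgals1-type state 1 fell and 14 did not pass (median log2 fold change -0.28). Lgals1, the sugar-binding protein galectin 1, was at 220 and 449 CPM in medium and large CD45+ barcodes and at 199 and 647 CPM in the CD45- sort (log2 fold change -0.28, SE 0.24, adjusted p = 0.869). In glial-dominated barcodes it was at 167 and 348 CPM against 198 and 648 CPM, lower in the CD45+ sort of both tumor samples, and in CD45+ barcodes outside that range at 549 and 609 CPM. Vim, the intermediate filament vimentin, was at 1159 and 1581 CPM against 1294 and 2195 CPM. Timp1, an inhibitor of matrix metalloproteinases, was the gene that fell, from 69.7 and 129 CPM in the CD45- to 11.8 and 16.8 CPM in the CD45+ sort (log2 fold change -2.81, SE 0.44, adjusted p = 0.00736). It was found in 4 of 140 and 3 of 54 CD45+ barcodes and in 33 of 304 and 220 of 878 CD45- barcodes. The call was lost with limits of 3 and 5 hsEGFR UMIs, without the tumor block and after thinning (edgeR adjusted p 0.0634 to 0.231). Of the 15 genes 1 stood higher in CD45+ barcodes with 0 hsEGFR UMIs than in human EGFR barcodes of the CD45- sort.

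The balance of the states was compared per barcode after thinning to 1000 UMIs, as the share of Lgals1-type UMIs among the UMIs of both state lists, in barcodes with at least 3. In the medium tumor sample 48 of 135 CD45+ barcodes (35.6%, 27.5 to 44.2%) and 102 of 288 CD45- barcodes (35.4%, 29.9 to 41.2%) had more Lgals1-type than Pdgfra-type UMIs. In the large tumor sample these were 32 of 50 (64.0%, 49.2 to 77.1%) and 426 of 840 (50.7%, 47.3 to 54.1%). Among glial-dominated barcodes alone the medium shares were 28.7% (20.6 to 37.9%) in the CD45+ and 35.2% (29.7 to 41.0%) in the CD45- sort, and the large shares were 58.8% (40.7 to 75.4%) and 50.4% (47.0 to 53.9%). All 12 Pdgfra-type genes but only 1 of the 15 Lgals1-type genes are in the glial list that sets this range. The shares within it therefore depend in part on that choice. The intervals of the sorts overlapped in both tumor samples, and barcodes are not replicates. Unthinned, the shares were 37.1 and 35.3% (medium) and 66.0 and 50.6% (large), and with merged barcodes 35.6 and 35.8%, and 66.0 and 51.1%.

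**Figure D4:**
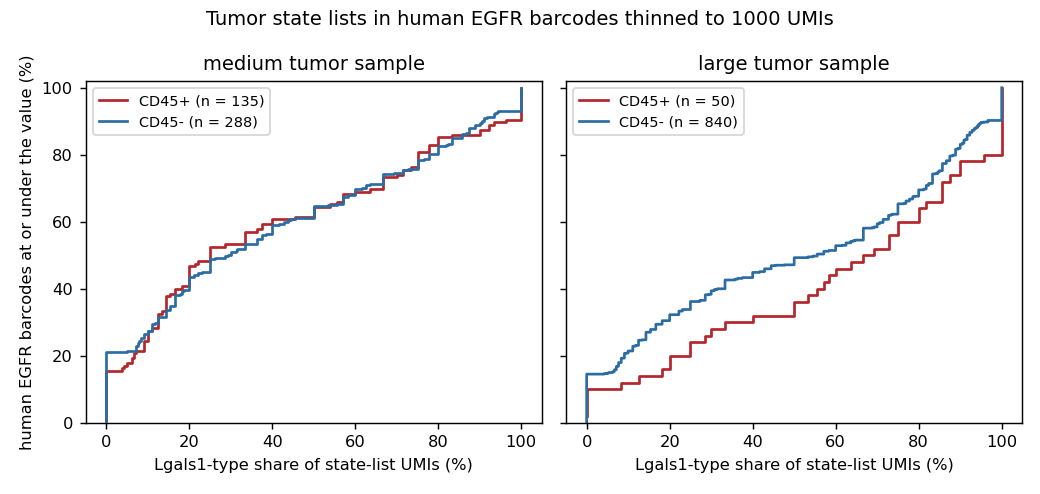
Cumulative share of human EGFR barcodes (vertical, %) by the Lgals1-type share of their state-list UMIs (horizontal, %) after thinning to 1000 UMIs, with the CD45+ sort in red and the CD45- sort in blue, for the medium (135 and 288 barcodes) and large (50 and 840 barcodes) tumor sample. The curves lie close together in the medium, and the CD45+ curve lies below the CD45- curve over most of the range in the large tumor sample.

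Cell-cycle genes were present in both sorts. At least 2 UMIs of S or G2 and M phase genes were found, after thinning to 1000 UMIs, in 16.5% (10.8 to 23.8%) of medium CD45+ and 16.7% (12.6 to 21.4%) of medium CD45- human EGFR barcodes, and in 13.2% (5.48 to 25.3%) and 24.1% (21.2 to 27.0%) of the large. Unthinned, the shares were 35.0 and 37.8%, and 33.3 and 53.2%. Of 7 S phase and 7 G2 and M phase genes 0 passed by edgeR. Among them 1, the nucleotide reductase subunit Rrm2, had an unadjusted p under 0.05, and as a gene it was at 65.0 and 41.9 CPM in medium and large CD45+ barcodes and 78.3 and 118 CPM in the CD45- sort.

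Of 8 myelin and oligodendrocyte genes 2 fell, 6 did not pass, and the median log2 fold change was -1.55. As a list they were at 28.0 per 10000 UMIs in the CD45+ and 52.3 in the CD45- sort of the medium tumor sample, and at 34.5 and 41.5 in the large. In glial-dominated barcodes the list was at 28.8 and 52.5 in the medium but at 43.4 and 41.7 in the large, a log2 ratio of 0.057 with a counting interval of -0.054 to 0.17. Mog, a myelin surface glycoprotein (chromosome 17, 37010743 to 37023398, GRCm38), had 0 and 2 UMIs in the medium and large CD45+ sort and 246 and 280 in the CD45- sort, and its UMIs there were in 30 of 304 and 63 of 878 barcodes (log2 fold change -4.95, SE 0.83, adjusted p = 0.0120). Mobp, the myelin-associated oligodendrocyte basic protein, was at 9.84 and 12.6 CPM against 149 and 27.8 CPM (log2 fold change -3.18, SE 0.59, adjusted p = 0.0201). Myelin genes were far higher in CD45- barcodes with 0 hsEGFR UMIs, at 370 and 438 per 10000 UMIs. The part of RNA from those barcodes in the CD45- human EGFR barcodes was not tested. Cells had been freed of myelin on Percoll before both sorts. The calls of Mog and Mobp were lost with DESeq2, without the tumor block and with a limit of 3 or 5 hsEGFR UMIs, and that of Mobp also without the medium CD45- library C.

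Of the 42 genes that fell, 33 were members of the Pcdhg cluster or pseudogenes, as were 819 of the 12356 genes tested. The Pcdhg genes share their last exons, and 20 of them were called on nearly the same counts, for example 19 and 12 UMIs of Pcdhga10 in the medium and large CD45+ sort and 431 and 769 UMIs in the CD45- sort. Which of them was transcribed is uncertain, as it is for processed pseudogenes such as Gm7432 and Rps2-ps6, whose reads may come from their parent genes. The other 9 were Ppp1r14a, Mog, Mobp, Cldn11, Tinagl1, Timp1, Akap5, Apod and Thbs2. Ppp1r14a, a phosphatase inhibitor that oligodendrocytes express, had 1 and 0 UMIs in the CD45+ and 123 and 97 in the CD45- sort (log2 fold change -4.99, SE 0.89). Tinagl1, a matrix protein, had 2 and 18 UMIs against 15 and 3671 (log2 fold change -2.84, SE 0.44, adjusted p = 0.00741), and its large CD45- UMIs came from 179 of 878 barcodes. With a limit of 3 hsEGFR UMIs 0 genes fell by edgeR (491 at an unadjusted p under 0.05), and the count ranged from 28 to 130 when a library was left out.

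**Figure D5:**
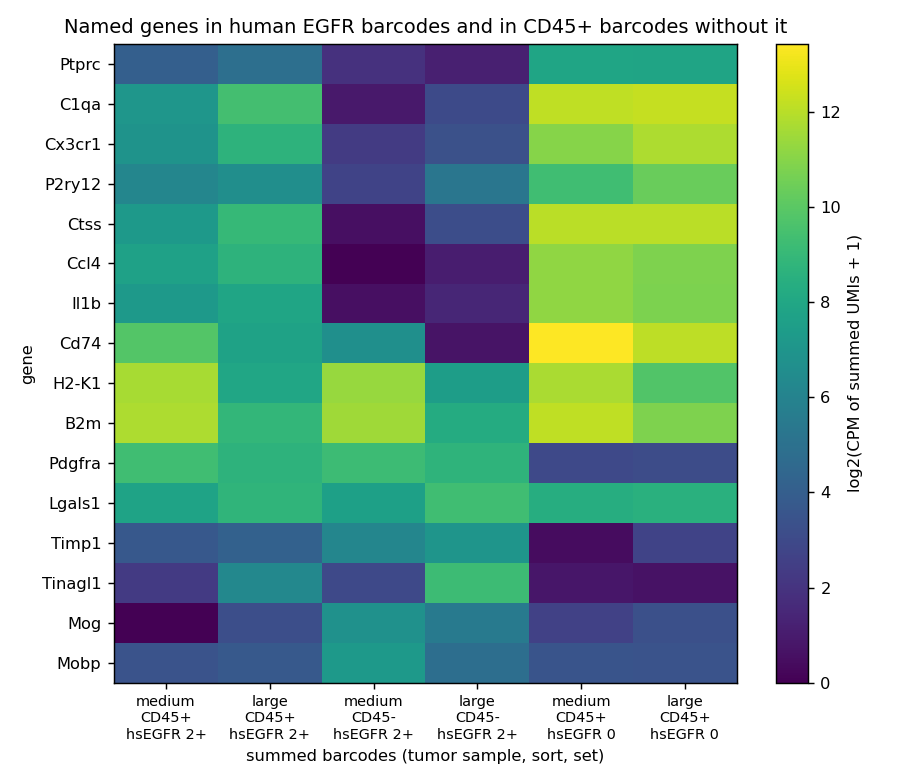
Level of 16 named genes (rows) as log2(CPM + 1) of summed UMIs in human EGFR barcodes of each tumor sample and sort and in CD45+ barcodes with 0 hsEGFR UMIs (columns), from dark to bright. C1qa, at 132 and 675 CPM in the CD45+ human EGFR barcodes, lies between the CD45- human EGFR barcodes and the CD45+ barcodes with 0 hsEGFR UMIs, while Pdgfra is at 411 to 630 CPM in every group of human EGFR barcodes.

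With the barcodes outside the glial-dominated range left out, the number of differences between the sorts depended on the setting. On 11930 genes, without those of the lists that set the range, 3 genes were higher in glial-dominated CD45+ barcodes (0.0251% of those tested) and 0 lower (0%) by edgeR, against 147 and 599 at an unadjusted p under 0.05. DESeq2 called 5 higher and 0 lower. A limit of 10% gave 18 higher and 126 lower genes, library sizes without TMM factors 34 and 89, every gene with at least 1 count 22 and 78, and leaving out Scrublet calls 5 and 34. The 3 genes were Jchain, Ly6a and Ly6c1. Ly6a, a surface protein of lymphocytes, endothelium and cells exposed to interferon, had 173 and 2 UMIs in the CD45+ and 15 and 2 in the CD45- sort (log2 fold change 5.67, SE 0.48, adjusted p = 0.00102). Ly6c1, a relative on monocytes and endothelium, had 65 and 2 UMIs against 10 and 4 (log2 fold change 4.73, SE 0.62, adjusted p = 0.0335). Both sit in a cluster of similar genes on chromosome 15, and reads may be split between copies.

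These 3 calls rested on few barcodes, and all were lost without the tumor block (edgeR adjusted p 0.645 for Jchain, 0.859 for Ly6a and 0.697 for Ly6c1). Jchain was also lost with DESeq2 (adjusted p = 1.00) and Ly6c1 without medium CD45+ library D (edgeR adjusted p = 0.325). Of the Ly6a UMIs in 154 glial-dominated CD45+ barcodes 129 were in 2 barcodes and the rest in 9 others, and of the 71 Jchain UMIs 65 were in 2. Ctss, which did not set the range, was at 47.4 and 49.8 CPM in glial-dominated CD45+ and at 0.454 and 0.479 CPM in glial-dominated CD45- barcodes (log2 fold change 6.40, SE 0.98, adjusted p = 0.0785). Of 6 MHC class II genes 0 passed by edgeR, and their median log2 fold change was 1.59 against -0.14 over all genes. Timp1 was at 13.5 and 18.7 CPM against 68.1 and 129 CPM (adjusted p = 0.0785), and Mog at 0 and 12.4 CPM against 111 and 44.7 CPM (adjusted p = 0.0949). The number of lower genes depended on single libraries, and was between 0 and 103 when 1 was left out.

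The EGFR pathway genes did not pass between the sorts. Of the mouse ERBB receptors Erbb3 was highest in UMIs, with 96 and 41 in the medium and large CD45+ sort and 383 and 1307 in the CD45- sort (log2 fold change -0.14, SE 0.26), and mouse Egfr had 4 and 2 against 21 and 57. Of the ligands, mouse Tgfa was at 169 and 113 CPM against 163 and 137 CPM, and Hbegf, a heparin-binding EGF-like ligand, at 240 and 398 CPM against 186 and 193 CPM (log2 fold change 0.62, SE 0.24, adjusted p = 0.523). Of 8 genes that report MAPK signalling 0 passed by edgeR, with a median log2 fold change of -0.35. Dusp6, a phosphatase that limits ERK, was at 132 and 189 CPM in the CD45+ sort and 115 and 340 CPM in the CD45- sort. Among 6 genes of dissociation stress, Atf3, a stress transcription factor, rose (80.7 and 193 against 37.6 and 21.6 CPM, log2 fold change 2.07, SE 0.44, adjusted p = 0.0464), while Fos and Egr1 had log2 fold changes of -0.04 and 0.02. Between glial-dominated barcodes of the sorts 0 of these 6 genes passed by edgeR.

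MHC class I RNA differed more between the tumor samples than between the sorts. The list was at 129 and 101 per 10000 UMIs in the human EGFR barcodes of the medium CD45+ and CD45- sort, and at 12.3 and 7.04 in those of the large. The log2 ratio of the CD45+ over the CD45- sort was 0.35 (counting interval 0.31 to 0.39) for medium and 0.80 (0.63 to 0.97) for large barcodes, and 0.35 and 0.31 in glial-dominated barcodes. H2-K1, a classical class I heavy chain, was found in 134 of 140 medium CD45+ and 284 of 304 medium CD45- barcodes, at 3322 and 2640 CPM, and in 20 of 54 and 346 of 878 barcodes of the large, at 243 and 179 CPM. B2m, the light chain of class I, was at 3584 and 2921 CPM in the medium sample but at 478 and 311 CPM in the large sample. CD45+ barcodes with 0 hsEGFR UMIs showed the same order for H2-K1, with 3421 CPM (medium) and 884 CPM (large), as did CD45- barcodes with 0, with 649 and 101 CPM. Between the sorts 0 of 6 class I genes passed by edgeR (median log2 fold change 0.47). With 1 tumor sample per stage no test between stages was made.

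Set against barcodes of their own gate with 0 hsEGFR UMIs, under the same limit on S100a8 and S100a9, the human EGFR barcodes of the CD45+ sort held more glial and less leukocyte RNA. Since the split was made on hsEGFR in the same barcodes, these values are a description. Of 13929 genes 1557 were higher (11.2%) and 2474 lower (17.8%) in human EGFR barcodes than in CD45+ barcodes with 0 hsEGFR UMIs, and library sizes without TMM factors moved this to 2805 and 1320 and the median log2 fold change of all genes from -0.32 to 0.32. With TMM factors 22 of 24 glial genes were higher, with a median of 5.27, and Sox9 and Sox8 did not pass. All 10 pan-leukocyte, 10 microglia, 10 macrophage and 10 T cell genes were lower, with medians of -4.28, -4.19, -4.23 and -5.74. The largest rises included Col11a1, a fibrillar collagen (140 and 302 against 1.36 and 0.790 CPM), Nkx2-2, a factor of oligodendrocyte progenitors, Gria4, a glutamate receptor subunit, and Fbln2, a matrix protein. The largest falls were genes at 0 UMIs in the human EGFR barcodes. Among them were Rasgrp3, an activator of Ras, at least 37.1-fold lower, and Il1rn, the interleukin 1 receptor antagonist, at least 28.6-fold lower. The T cell receptor segment Trbc2 was at least 20.6-fold lower. Each bound is by a floor of 3 counts over the group.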

How the data were processed

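The authors ran RapMap (bcbio-nextgen) on the inDrop reads against mouse GRCm38 transcripts, and the table also has transgene rows. They deposited raw UMI counts per gene and barcode (50262 genes, 20811 barcodes), with no normalization, and a library annotation of another kind (unit: other) that gives stage and sort per the file headers. Whether their removal of ambient RNA and doublets preceded the table is not stated. Gene positions and types are from GENCODE M21. Human EGFR barcodes and the 31 gene lists were chosen with earlier results of these data known.

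UMIs were summed per tumor sample (medium, large) and sort, at least 20 barcodes per sum, and tested with edgeR 4.0.16 (filterByExpr, TMM, robust quasi-likelihood fit, two-sided, Benjamini-Hochberg, threshold 0.05). Both sorts of a stage were taken as from the same tumor, so the tumor was a block. Deviations of its sorts from the sort means correlated at 0.363 for human EGFR barcodes by sort, 0.195 against barcodes with 0 hsEGFR UMIs and 0.329 for glial-dominated barcodes. The common dispersion was 0.0444, 0.0679 and 0.0464. SEs were derived from the fit. Each tumor sample was taken as 1 biological sample, so p-values cover 2 pairs. An exact permutation test of 2 pairs cannot reach the threshold and was not used. Named genes were the 10 largest rises and falls past the threshold in the same direction in both tumor samples with at least 50 UMIs, and the members of the lists. Shares have exact Clopper-Pearson intervals at 95%, which cover counting error only. Alternatives were DESeq2 1.42.0, other limits, thinning, left-out libraries and merged barcodes, the last and a 10% limit chosen after the data were seen. Doublets were scored with Scrublet (scanpy 1.11.5) and kept. The fit was tested on simulated data with known changes. Between the sorts it recovered 3.95% of 2-fold, 71.7% of 4-fold and 86.4% of 8-fold changes, with 10 false calls. For glial-dominated barcodes it recovered 6.15, 66.1 and 80.3%, with 11 false calls. Against barcodes with 0 hsEGFR UMIs it recovered 6.45, 43.9 and 65.2%, with 10 false calls. A gene that did not pass may therefore have changed 2-fold. In each of these simulations false calls were a larger share of all calls than the threshold of 0.05 allows. Some of the genes called may therefore not differ. Some engineered and named genes are not reported here.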

Additional observations from a re-analysis of the deposited data

Results flagged for a closer look

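In 2 tumor samples the gene lists could move in opposite directions between the sorts, and 2 lists did so beyond counting error, with the transgene list set aside because it holds the gene that chose the barcodes. The glial list had log2 ratios of CD45+ over CD45- human EGFR barcodes of 0.062 in the medium and -0.13 in the large tumor sample. The Pdgfra-type list had log2 ratios of 0.079 and -0.43. All 12 genes of this list are among the 24 glial genes, so the 2 lists are not separate observations. The difference between the tumor samples was not tested beyond these counting intervals, since each was taken as 1 biological sample. In glial-dominated barcodes alone these opposite directions were not seen beyond counting error. That range is set with the glial list and left out a larger part of the CD45+ than of the CD45- barcodes. The values in it follow in part from that choice and are not an independent check. There the log2 ratios were 0.16 and 0.15 for the glial list, and 0.19 and -0.087 (-0.21 to 0.029) for the Pdgfra-type list. In those barcodes the Pdgfra-type list was at 60.8 and 37.9 per 10000 UMIs in the medium and large CD45+ sort and at 53.2 and 40.2 in the CD45- sort.

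The early tumors, which enter no comparison above, held hsEGFR above the 3 counts that a count of 0 allows, with 20 UMIs in 5110 CD45+ barcodes and 59 UMIs in 2760 CD45- barcodes. Of these, 17 UMIs in the CD45+ sort were in 1 barcode with 30 glial and 0 leukocyte UMIs. In the CD45- sort 56 UMIs were in 4 barcodes, each glial-dominated, and 2 of these 4 had an iCre UMI.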

How the results depend on the processing

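Counts of genes past the threshold moved with several settings. Between the sorts, 87 genes were higher and 42 lower; limits of at least 3 and at least 5 hsEGFR UMIs gave 27 and 17 higher and 0 and 2 lower, every gene with at least 1 count gave 133 and 100, thinning to 1000 UMIs gave 29 and 21, DESeq2 gave 20 lower and leaving out Scrublet calls gave 95 lower. The sorts of a stage were taken as paired. The fit without the replicate block gave 16 higher and 0 lower between the sorts, and 0 and 0 between glial-dominated barcodes. Against CD45+ barcodes with 0 hsEGFR UMIs (1557 and 2474), library sizes without TMM factors gave 2805 and 1320, thinning 793 higher and DESeq2 976 lower. For glial-dominated barcodes (3 and 0), a limit of 10% gave 18 and 126, limits of 3 and 5 hsEGFR UMIs gave 5 and 5 higher and 26 and 38 lower, no TMM factors 34 and 89, every gene 22 and 78, DESeq2 5 higher, thinning 1 and 8, no Scrublet calls 5 and 34, and merged barcodes 2 lower.

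Leaving out 1 library at a time gave 52 to 121 higher and 28 to 130 lower genes between the sorts, 1299 to 1555 and 1975 to 2460 against CD45+ barcodes with 0 hsEGFR UMIs, and 1 to 25 and 0 to 103 between glial-dominated barcodes. The lower count between the sorts rose over 1.5 times without large CD45+ library A, C or D (70, 76 and 89), medium CD45+ B or D (126 and 86), large CD45- A, C or D (130, 102 and 71) and medium CD45- A, B or D (85, 84 and 103). The hsEGFR shares ranged over 3.39 to 3.95% and 2.27 to 2.93% in the medium and large CD45+ sort and over 17.9 to 19.3% and 37.7 to 39.1% in the CD45- sort, the glial-dominated shares over 83.0 to 87.5%, 62.9 to 71.4%, 99.1 to 99.6% and 98.3 to 99.0%, and the iCre shares over 43.8 to 51.8%, 39.1 to 42.9%, 60.7 to 67.1% and 59.9 to 64.2%, in the same order. Leaving out a whole tumor sample leaves 1 pair, and so a ratio with no test.

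In the same order of groups, a limit of 5 hsEGFR UMIs gave hsEGFR shares of 2.56, 1.37, 14.3 and 29.8%, and thinning gave 2.44, 1.42, 9.72 and 23.3%. Every deposited barcode gave 12.3 and 35.6% in the CD45- sort, and a limit of 3 UMIs 35.1% in the large. Within run 1 the shares were 4.66, 8.33 and 16.9% in the first 3 groups, within run 3 35.0% in the large CD45- sort, and merging gave 3.03% in the medium CD45+ sort. The glial-dominated share was 76.4% in the medium CD45+ and 96.6% in the large CD45- sort with limits of 10 and 90%, 92.9 and 99.4% with the pan-leukocyte list alone, 79.3 and 99.7% in the large CD45+ and CD45- sort with at least 5 hsEGFR UMIs, 89.7 and 88.3% in the CD45- sort after thinning, 97.6% in the large CD45- sort over every barcode, 77.8% (large CD45+) and 100% (medium CD45-) in run 1 and 100% (large CD45-) in run 2. The iCre share was 18.7, 3.77, 18.3 and 17.4% after thinning, 62.1, 69.3 and 65.2% in the last 3 groups with at least 5 hsEGFR UMIs, 71.9% in run 1 of the medium CD45-, 51.8 and 65.5% in runs 2 and 3 of the large CD45- sort, and 63.5 and 69.1% after merging in the medium CD45+ and large CD45- sort. Of the single genes named between the sorts, 450 of the values over all settings kept direction and side of the threshold, 65 lost the call, 16 with no test moved and 0 reversed. The cause of these changes was not tested. Shallow depth limits what genes of few UMIs can show.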

Other observations

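In the 867 glial-dominated barcodes of the large CD45- sort the genes of the microglia list held 529 UMIs, or 0.845 per 10000 UMIs, in 266 barcodes. Of these UMIs 182 were of P2ry12, in 81 barcodes, and 19 of Cx3cr1, in 18. In large CD45+ barcodes with 0 hsEGFR UMIs P2ry12 was at 1312 CPM and Cx3cr1 at 3489 CPM. Both genes were chosen for this after their values were seen, and the source of the UMIs was not tested.

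Astrocyte genes were at nearly the same level in both sorts, at 14.2 and 13.3 per 10000 UMIs in the medium and large CD45+ human EGFR barcodes and at 13.7 and 13.2 in the CD45- ones. Genes of committed oligodendrocyte progenitors were at 18.9 and 12.7 per 10000 UMIs in the CD45+ and at 18.4 and 17.3 in the CD45- sort, and 0 of 7 passed by edgeR. Gpr17, a receptor of that stage, was at 901 and 373 CPM against 963 and 586 CPM. RNA of the ependyma and choroid plexus list, abundant in CD45- barcodes with 0 hsEGFR UMIs at 141 and 80.6 per 10000 UMIs, was at 0.0984 and 0.168 in the CD45+ and at 0.779 and 0.373 in the CD45- human EGFR barcodes.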
